A study of Homo sapiens with 3 samples.

Results

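Zinc finger genes gave rise to 290 of the 10562 circular RNAs (circRNAs) listed in 3 urothelial cell lines, and to 143 of the 4231 host genes. The members were chosen by gene symbol: a circRNA was taken when its annotated host gene began with ZNF, ZFP, ZKSCAN, ZSCAN, ZBTB, ZFHX, ZMYM or ZMYND and a digit, began with ZC3H or ZCCHC, or was ZFX, ZFR or ZFPM2. The rule itself uses symbols and no measured value. The table left 257 circRNAs without a host gene, and 0 of them carried a circBank name of this kind.

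Circular RNA was sequenced in SV-HUC-1, an immortalized line derived from urothelium, and in J82 and T24, both labelled as lines from bladder cancer. Values of the 3 lines are given below in the order SV-HUC-1, J82, T24 where no line is named. No treatment is stated, and each line gave 1 library, so no difference between a pair of lines has a replicate check, and a line cannot be told apart from its library. All libraries were made from total RNA depleted of ribosomal RNA and digested with RNase R, an exonuclease that removes linear RNA, so the level of the linear host transcript was not measured. The listed circRNAs held 128055, 126041 and 108574 reads. Of 13 epithelial or urothelial marker genes, 9 gave listed circRNAs, with 969, 428 and 29 reads, and 6 of the 9 stood at 0 in T24. Of 8 mesenchymal genes, 7 did so, with 386, 102 and 103 reads. Of 5 blood or endothelial genes, FLI1 alone did, with 33, 11 and 44 reads. The mesenchymal genes did not move together. Against SV-HUC-1, LTBP2, NID1 and ZEB1 were at least 2-fold higher in T24, and COL5A1, FN1 and ROR1 lower. In J82, BNC2 was higher, and COL5A1, FN1, LTBP2 and ROR1 lower. The part of these differences in the results on zinc finger hosts was not tested.

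A circRNA is made when a downstream splice donor is joined to an upstream acceptor, and the reads that count it cross that back-splice junction. Zinc finger proteins of the C2H2 type form one of the largest families of human transcription factors. Many carry a KRAB domain, which recruits the corepressor TRIM28 and heterochromatin enzymes to DNA, and their genes lie in clusters on chromosome 19. In most of them a long last exon encodes the whole finger array. Genes of this family are known hosts of circRNAs, among them ZKSCAN1 and ZNF609.

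The common label of transcription factor did not cover every host. Most of the 18 hosts that began with ZC3H, ZCCHC or ZFR, with 45 circRNAs, carry finger types known for binding or handling RNA. The classes follow symbols, so the ZC3H class also holds ZC3HC1, which is not of that kind. The symbol rule also took ZBTB8OS, a gene named for lying opposite ZBTB8 and not for fingers of its own. ZBTB8OS gave 4 circRNAs, with 24, 24 and 15 reads. Of the member circRNAs, 2 bore a circBank name without the host's symbol, and they were kept under the annotated hosts ZNF730 and ZSCAN26.

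Zinc finger hosts held close to the same share of circRNA reads in the 3 lines. The members had 3723, 3746 and 3169 reads. That was 2.91% of the circRNA reads in SV-HUC-1 (exact 95% binomial interval 2.82 to 3.00), 2.97% in J82 (2.88 to 3.07) and 2.92% in T24 (2.82 to 3.02). These intervals overlapped for every pair of lines. Intervals here cover counting error only, since the reads carry no molecular identifiers. Of the 290 members, 264, 269 and 243 were detected in the lines, and 218 (75.2%) were detected in all 3 lines, compared with 69.9% of all listed circRNAs. The 10 members seen in SV-HUC-1 alone had at most 11 reads, a circRNA of ZNF207. The 9 seen in J82 alone had at most 6. The 3 seen in T24 alone, of ZFHX3, ZMYM1 and ZFPM2, had 5 reads each, and 5 is the lowest maximum of any member. At such counts a line with 0 reads is below detection at this depth, and absence is not shown.

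Most members were counted by few reads. At least 10 reads in any line were found for 123 of the 290, and 167 had at most 9 in every line. The 10 members with the most reads in a line, picked separately for each line, held 37.9%, 36.9% and 35.7% of its member reads.

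In shape, circRNAs of zinc finger hosts were short and often shared a splice site. The median distance between the ends of a circRNA on the genome was 3485.5 bases for members and 6050.5 for all circRNAs. Spans under 1000 bases were found for 62 members (21.4%), compared with 13.8% of all. Spans of 50000 bases or more were found for 4 members (1.38%) and 4.15% of all, and those 4 came from ZNF331, with 2 of them, ZNF148 and ZMYND8. A single listed circRNA came from 77 of the 143 hosts (53.8%), compared with 46.2% of all hosts. Among the 213 members whose host had at least 2, 166 (77.9%) shared an end with another circRNA of that host, compared with 69.4% over all such circRNAs. The circBase database, a catalogue of published circRNAs, had an ID for 236 members (81.4%) and for 86.2% of all.

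The promoters of the host genes were richer in G and C than promoters at large. RefSeq's table for GRCh38.p14 held a promoter for 126 of the 143 hosts, 2 of them through an older symbol. Over the 250 bases before the start of transcription, the median G plus C content was 61.4% for the hosts and 58.0% for all 35116 promoters. The GC box, searched as GGGCGG on both strands, was found in 72 host promoters (57.1%) and in 42.6% of all. The CCAAT box, searched as CCAAT on both strands, was found in 53 (42.1%) and in 32.0% of all. A match describes these letters and is not evidence of a bound factor. Other circRNA host genes were not scored, so these differences cannot be read as particular to zinc finger hosts.

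The most abundant member came from ZKSCAN1, a SCAN and KRAB zinc finger protein whose circRNA is known from liver and brain. This circRNA, hsa_circ_0001727 (chr7:99621041-99621930, plus strand; positions of circRNAs are on hg19 as deposited), had 335, 266 and 263 reads. In CPM, the authors' scaling of reads to library size, it stood at 6.72, 5.62 and 6.16. It made up at least 97.1% of the ZKSCAN1 circRNA reads in each line. ZNF292, a large C2H2 protein, followed with hsa_circ_0004058 at 198, 185 and 257 reads, or 3.97, 3.91 and 6.02 CPM. Its level in T24 was 1.51 times that in SV-HUC-1 (exact 95% counting interval 1.25 to 1.83), and in J82 it was 0.984 times (0.801 to 1.21). A second known circRNA of ZNF292, hsa_circ_0004383, had 24, 34 and 37 reads.

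ZNF609 is the host of a circRNA known for a role in the growth of muscle precursor cells. It gave a single listed circRNA, hsa_circ_0000615 (chr15:64791491-64792365, plus strand), with 176, 111 and 100 reads in SV-HUC-1, J82 and T24, or 3.53, 2.35 and 2.34 CPM. Both cancer lines stood below SV-HUC-1, J82 at 0.664 times (0.519 to 0.847) and T24 at 0.663 times (0.513 to 0.852). These comparisons share the SV-HUC-1 library, and J82 and T24 differed from each other by a ratio of 1.003 (0.758 to 1.33). The IDs hsa_circ_0072088 of ZFR and hsa_circ_0109315 of ZNF91, also looked for as known circRNAs, were matched by 0 entries.

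ZNF124, a KRAB protein, had its circRNA hsa_circ_0002922 at 108, 172 and 119 reads, 1.68 times higher in J82 than SV-HUC-1 (1.31 to 2.15). ZNF81, a KRAB protein encoded on the X chromosome, had hsa_circ_0006364 at 80, 129 and 98 reads, 1.70 times higher in J82 (1.28 to 2.27). ZNF148, which binds GC-rich promoter elements, had hsa_circ_0001333 at 75, 143 and 47 reads. It was 2.01 times higher in J82 than SV-HUC-1 (1.51 to 2.69) and 2.75 times higher than in T24 (1.96 to 3.91). For these 3 hosts J82 was the highest line.

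SV-HUC-1 was the highest line for 3 others. ZNF236, a C2H2 protein with many fingers, had hsa_circ_0004979 at 200, 122 and 67 reads, which put J82 at 0.643 times (0.509 to 0.809) and T24 at 0.391 times (0.292 to 0.518) the level in SV-HUC-1. ZBTB44, a BTB domain protein, had hsa_circ_0002484 at 92, 34 and 56 reads, and J82 stood at 0.389 times SV-HUC-1 (0.255 to 0.583). ZCCHC2, a protein with a CCHC knuckle, had hsa_circ_0000854 at 85, 63 and 14 reads, and T24 stood at 0.192 times SV-HUC-1 (0.101 to 0.340). Among the 10 most abundant members, only the ZNF148, ZBTB44, ZNF236 and ZCCHC2 circRNAs differed by 2-fold or more between any pair of lines.

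**Figure D1:**
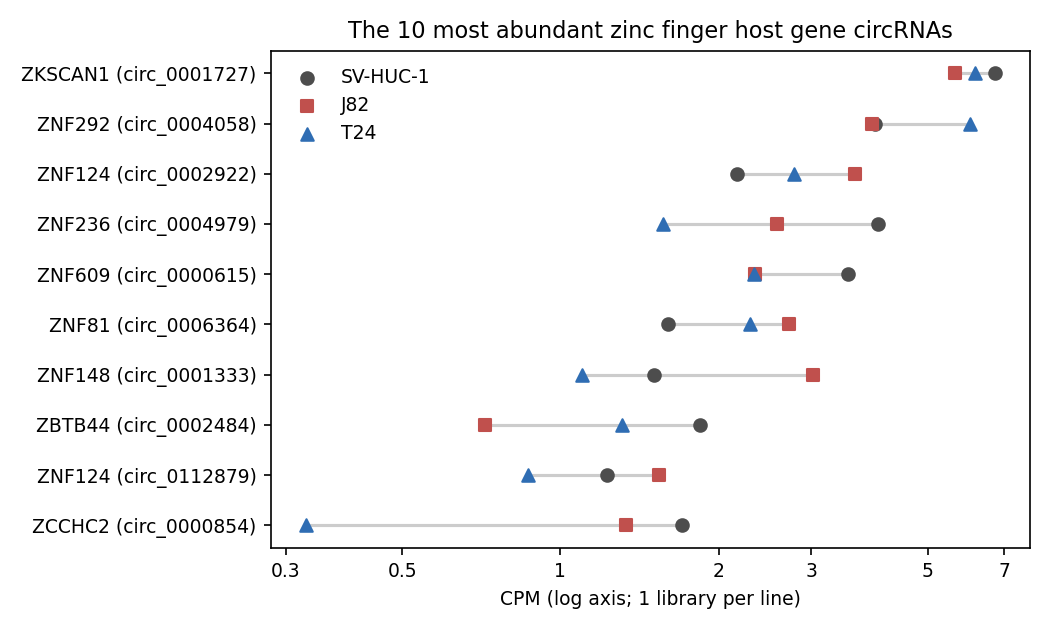
CPM of the 10 most abundant zinc finger host circRNAs on a log axis, with 1 point per library and a grey bar from the lowest to the highest line. ZKSCAN1 lies within a narrow range (5.62 to 6.72 CPM), while ZCCHC2 extends from 0.328 CPM in T24 to 1.71 in SV-HUC-1.

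Comparisons over many circRNAs took those with 10 reads or more in either library of a pair. Folds were differences of log2(CPM + 0.0234), where the added amount is 1 read of the shallowest library, so that small counts give folds that are too small. The words higher and lower in counts stand for a 2-fold difference. Ratios in the text are of CPM without the added amount. Where a library had 0 reads, 3 reads were put in its place, and the fold is given as at least that size.

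Between J82 and SV-HUC-1, 114 of the 290 members could be compared. At least 2-fold higher in J82 were 25 (21.9%), against 22.9% of all 3996 circRNAs compared, and at least 2-fold lower were 20 (17.5%), against 23.3%. The median log2 fold was -0.01 for the members and -0.01 for all. The members therefore lay near the background in this comparison. Of the 71 ZNF and ZFP circRNAs compared, 18 were higher and 11 lower.

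The 5 members highest in J82 over SV-HUC-1 came from ZNF841 (a pair of circRNAs), ZNF432 and ZNF257 on chromosome 19, and from ZNF407. ZNF407, a C2H2 protein encoded on chromosome 18, had hsa_circ_0047964 at 2, 21 and 3 reads in SV-HUC-1, J82 and T24, a ratio of 11.1 in J82 with a wide interval (2.70 to 97.3). ZNF257, a KRAB protein, had hsa_circ_0050301 at 3, 19 and 3 reads, a ratio of 6.67 (1.96 to 35.2). For both, J82 stood apart from the other lines, which had 2 or 3 reads each.

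The 5 members lowest in J82 against SV-HUC-1 began with an unnumbered circRNA of ZNF207 (chr17:30692348-30695033, plus strand), a protein that helps to load a checkpoint factor on mitotic chromosomes. It had 11 reads in SV-HUC-1 and 0 in both cancer lines, at least 3.48-fold lower in J82 and at least 3.14-fold lower in T24. The longer ZNF207 circRNA hsa_circ_0005565, with the same downstream end, had 9, 10 and 22 reads, so the host did not lack circRNAs in those lines. ZNF346, which binds double-stranded RNA, had hsa_circ_0001559 at 10, 1 and 6 reads, 9.49-fold lower in J82 (1.35 to 412). ZNF79, a KRAB protein, had hsa_circ_0006984 at 10, 1 and 2 reads, with the same values for J82. ZNF514, also a KRAB protein, had hsa_circ_0121208 at 24, 4 and 21 reads, 5.70-fold lower in J82 (1.96 to 22.6). ZNF516 had hsa_circ_0007725 at 14, 2 and 6 reads, 6.64-fold lower in J82 (1.53 to 60.2). The intervals show how little these low counts fix the size of a difference.

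Outside the ZNF symbols, 4 of the 10 ZBTB circRNAs compared were lower in J82, from ZBTB44, ZBTB11, ZBTB38 and ZBTB24, and 1 was higher, from ZBTB20, where 23.3% of all circRNAs compared were lower and 22.9% higher. ZBTB11 had a single circRNA with 20, 5 and 20 reads, 3.80-fold lower in J82 (1.38 to 12.9). The ZBTB20 circRNA hsa_circ_0005332 had 5, 24 and 6 reads. The ZMYND8 host, a reader of acetylated and methylated histones, gave 2 circRNAs that were higher in J82, hsa_circ_0004212 at 8, 27 and 5 reads and hsa_circ_0115306 at 2, 10 and 3. ZFX, a transcriptional activator, had host total reads of 26, 52 and 41, 2.11 times higher in J82 than SV-HUC-1 (1.29 to 3.52).

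Between T24 and SV-HUC-1, 101 of the 290 members could be compared. At least 2-fold higher in T24 were 16 (15.8%), against 21.4% of all 3847 circRNAs compared, and at least 2-fold lower were 24 (23.8%), against 27.3%. The median log2 fold was -0.15 for the members and -0.14 for all. Both shares were below those of all circRNAs, and the median was close to it.

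ZFPM2, a cofactor of GATA factors, was the member farthest above SV-HUC-1 in T24. Its circRNA hsa_circ_0003380 had 2, 0 and 53 reads, a ratio of 30.9 (8.14 to 262) against SV-HUC-1. A second ZFPM2 circRNA with the same downstream end, hsa_circ_0135442, had 0, 0 and 5 reads. T24 thus held nearly all ZFPM2 circRNA reads, and J82 had none in either circRNA. ZNF451, a SUMO ligase, had 0, 16 and 20 reads over its 3 circRNAs, at least 5.62-fold higher in J82 and at least 7.78-fold higher in T24. Its hsa_circ_0007587 alone had 0, 4 and 10 reads. ZNF483, with SCAN and KRAB domains, had hsa_circ_0137709 at 4, 5 and 30 reads, a ratio of 8.75 in T24 (3.08 to 34.2).

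ZC3H18, which links the cap-binding complex to nuclear RNA decay, was higher in both cancer lines. Its circRNA hsa_circ_0040831 had 3, 12 and 22 reads, a ratio of 4.21 in J82 (1.14 to 23.3) and 8.55 in T24 (2.57 to 44.6) against the same SV-HUC-1 library. ZNF197, a SCAN and KRAB protein, had hsa_circ_0123857 at 1, 1 and 10 reads, a ratio of 11.7 in T24 (1.66 to 506). Summed over 26 circRNAs, ZC3H hosts had 214, 199 and 246 reads, and T24 stood at 1.34 times SV-HUC-1 (1.11 to 1.62).

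ZFHX3, a homeodomain and zinc finger protein, gave a circRNA that was among the lowest in T24. This circRNA, hsa_circ_0007511, had 32, 30 and 2 reads, 13.7-fold lower in T24 (3.50 to 118). The host total differed less: over 3 circRNAs ZFHX3 had 44, 35 and 15 reads. For that total, T24 stood at 0.398 times SV-HUC-1 (0.206 to 0.728). ZNF732 had an unnumbered circRNA (chr4:289226-289944, minus strand) at 13, 15 and 0 reads, at least 3.72-fold lower in T24. ZCCHC6, an enzyme that adds uridines to RNA ends, had hsa_circ_0007037 at 11, 4 and 0 reads, and ZNF608 had hsa_circ_0001523 at 11, 2 and 0, both at least 3.14-fold lower in T24. Another ZCCHC6 circRNA, hsa_circ_0001869, had a log2 fold of -0.008 for both cancer lines against SV-HUC-1 (limma fit, below). ZBTB46, a factor best known from dendritic cells, had 87, 71 and 14 reads over 3 circRNAs, 5.33-fold lower in T24 than in SV-HUC-1 (3.01 to 10.1). ZNF362 had 26, 26 and 2 reads over 2 circRNAs, 11.1-fold lower (2.79 to 96.9). For each of these hosts except ZNF608 and ZCCHC6, J82 lay near SV-HUC-1 and T24 apart.

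Between J82 and T24, 102 of the 290 members could be compared. At least 2-fold higher in J82 were 32 (31.4%), against 25.1% of all 3679 circRNAs compared, and at least 2-fold lower were 17 (16.7%), against 19.5%. The median log2 fold was 0.24 for the members and 0.13 for all. With a filter of 20 reads the member median turned to -0.12, while that of all circRNAs was 0.17. The highest were the circRNAs of ZNF732, ZFHX3, ZNF331, ZNF841 and ZNF362. The ZNF331 circRNA (chr19:54025109-54080107, plus strand) had 3, 18 and 1 reads. The lowest were those of ZFPM2, ZNF197, ZNF483, ZNF514 and ZNF142. The ZNF142 circRNA hsa_circ_0007648 had 12, 7 and 31 reads, 4.90-fold lower in J82 than in T24 (2.12 to 13.2).

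**Figure D2:**
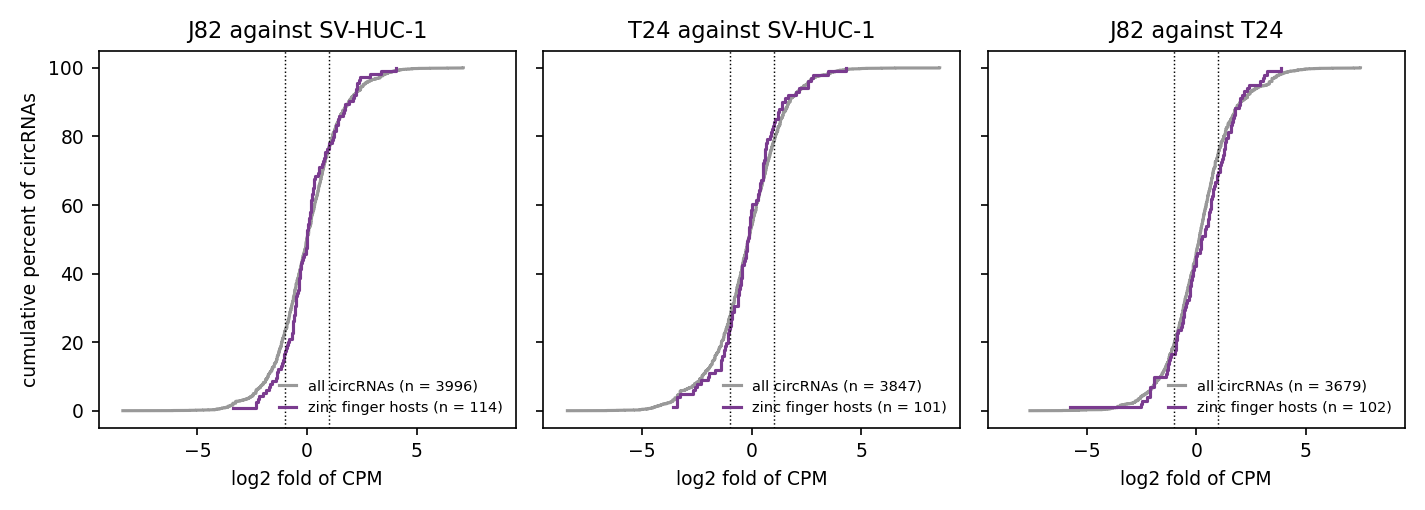
Cumulative percent of circRNAs against the log2 fold of CPM for the 3 pairs of lines, for zinc finger hosts (purple) and all circRNAs (grey), with dotted lines at the 2-fold threshold. The curves run close together for J82 and T24 against SV-HUC-1, where the member medians are -0.01 and -0.15, and the purple curve lies to the right for J82 against T24, where it is 0.24 (-0.12 with a filter of 20 reads).

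Summed by host gene, 91 of the 143 hosts could be compared between J82 and SV-HUC-1, where 17 were at least 2-fold higher (18.4% of all hosts were) and 14 lower (19.5% of all). Between T24 and SV-HUC-1, 84 could be compared, with 16 higher (18.7% of all) and 17 lower (22.1% of all). Between J82 and T24, 86 could be compared, with 22 higher (20.7% of all) and 12 lower (16.6% of all). In an exact binomial test of the reads of 2 libraries (two-sided, Benjamini-Hochberg adjusted), which compares libraries and not conditions, 19 members were higher in J82 than SV-HUC-1 (18.3% of all circRNAs were) and 11 lower (16.4%). In T24, 18 were higher (17.1%) and 15 lower (20.3%), and between J82 and T24, 22 were higher (18.9%) and 14 lower (14.9%).

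Over all members, the summed CPM in J82 was 1.06 times that in SV-HUC-1 (1.01 to 1.11), beside 1.04 for all circRNAs. In T24 it was 0.993 times (0.946 to 1.04), beside 0.989.

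The largest host totals combined the abundant circRNAs above with others. ZNF827, known for a role at telomeres, had 53, 118 and 57 reads over 6 circRNAs, 2.35 times higher in J82 than SV-HUC-1 (1.68 to 3.31). ZMYND8 had 86, 106 and 58 over 10, and ZC3H7B, an RNA-binding protein, had 67, 58 and 68 over 4. ZC3H7B differed by less than counting error between J82 and SV-HUC-1 (0.912 times, 0.630 to 1.32).

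Summed together, the zinc finger hosts on chromosome 19 had a higher circRNA level in J82 than in the other lines. This chromosome, noticed after the values were seen, held 58 of the 290 members and 4.13% of all circRNAs, and 38 of the 143 hosts (26.6%) and 5.32% of all hosts. Its members had 310, 568 and 289 reads. Their summed CPM in J82 was 1.93 times that in SV-HUC-1 (1.68 to 2.22) and 1.78 times that in T24 (1.54 to 2.05), while T24 stood at 1.09 times SV-HUC-1 (0.923 to 1.28). The other circRNAs of chromosome 19 had 5949, 4445 and 4875 reads, and J82 stood at 0.787 times SV-HUC-1 (0.757 to 0.818). The members elsewhere had 3413, 3178 and 2880 reads, at 0.981 times (0.934 to 1.03). Without ZNF841, the host with the largest difference in reads, the chromosome 19 members had 288, 434 and 269 reads, and J82 stood at 1.59 times SV-HUC-1 (1.37 to 1.85).

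A higher CPM in J82 than in SV-HUC-1 was found for 28 of the 38 zinc finger hosts on chromosome 19 (73.7%), for 47 of 105 zinc finger hosts elsewhere (44.8%), for 68 of 187 other hosts on chromosome 19 (36.4%) and for 1898 of 3901 remaining hosts (48.7%). Every member reached at least 5 reads in some line, and hosts such as ZNF350 (0, 5 and 0 reads) reached them only in J82. Such hosts may be listed through the line where they are high, so this count is no support on its own. The sums above include such hosts too, on a chromosome picked after the values were seen, so they describe these libraries and test nothing. Of the 38 hosts, 10 were lower in J82 than in SV-HUC-1, and 13 were lower in J82 than in T24. Single circRNAs past 2-fold higher in J82 came from ZNF841, with 2 of them, ZNF432, ZNF607, ZNF257, ZNF585B, ZNF331 and ZNF587. All but the longer ZNF841 circRNA reached 10 reads in J82 and not in SV-HUC-1, so they entered the comparison through the line where they are high, and their number supports nothing. The ZNF607 circRNA hsa_circ_0007819 had 5, 18 and 4 reads, with a ratio of 3.79 in J82 (1.36 to 13.1). The circRNAs hsa_circ_0008838 of ZNF430 (30, 23 and 20 reads) and hsa_circ_0109324 of ZNF91 (24, 20 and 8) were not higher in J82. Genes of this family resemble each other in sequence, and how the authors assigned reads that match several of them is not stated in the material at hand, so counts of near-identical paralogs are uncertain.

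**Figure D3:**
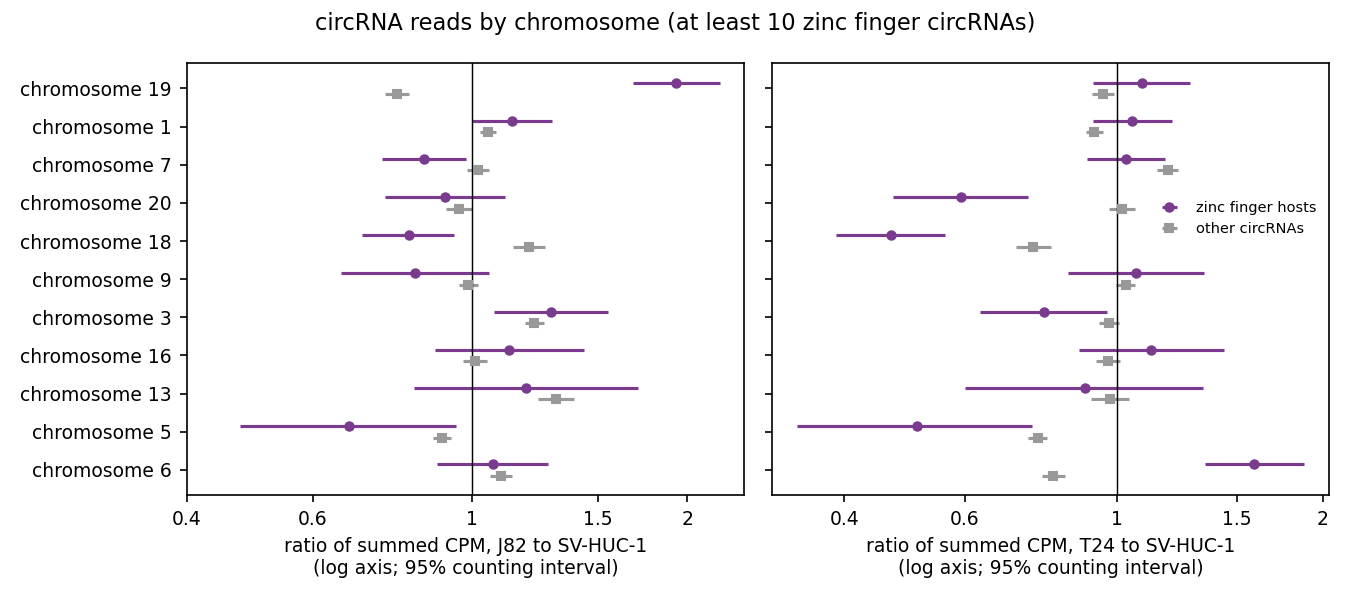
Ratio of summed CPM, J82 to SV-HUC-1 (left) and T24 to SV-HUC-1 (right), by chromosome on a log axis with exact 95% counting intervals, for zinc finger hosts (circles) and the other circRNAs of each chromosome (squares). On chromosome 19 the J82 ratio is 1.93 for zinc finger hosts and 0.787 for the others, and on chromosome 18 the T24 ratio is 0.469 and 0.756.

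ZNF841 and ZNF432 lie in one stretch of chromosome 19, from ZNF175 to ZNF331, whose bounds were set after the values were seen. Its 12 hosts had 19 members, with 111, 303 and 112 reads, a ratio of 2.88 for J82 against SV-HUC-1 (2.31 to 3.61). The other circRNAs of this stretch numbered 2, with 5, 13 and 6 reads and a ratio of 2.74 (0.916 to 9.81). These are too few to tell whether the difference in this stretch is particular to zinc finger hosts. ZNF841, a KRAB-family protein, had hsa_circ_0008749 (chr19:52579296-52592255, minus strand) at 22, 117 and 19 reads, 5.60 times higher in J82 than SV-HUC-1 (3.53 to 9.28) and 5.56 times higher than in T24 (3.41 to 9.57). A shorter ZNF841 circRNA that shares one end with it, hsa_circ_0002705 (chr19:52579296-52580337), had 0, 17 and 1 reads, at least 5.97-fold higher in J82 than SV-HUC-1. ZNF432, a KRAB protein, had hsa_circ_0007623 (chr19:52543740-52550313, minus strand) at 2, 30 and 8 reads, a ratio of 15.8 (4.01 to 136). ZNF766, a neighbour, had host total reads of 34, 46 and 45, without a 2-fold difference. ZNF331 had 18, 35 and 13, and ZNF175 had 10, 19 and 3. ZNF160, with 8, 6 and 8, and ZNF880, with 6, 5 and 2, were not higher in J82. Without ZNF841 and ZNF432, the members of the stretch had 87, 139 and 84 reads and a ratio of 1.68 (1.28 to 2.23). The members of chromosome 19 outside it had 199, 265 and 177 reads and a ratio of 1.40 (1.16 to 1.69).

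**Figure D4:**
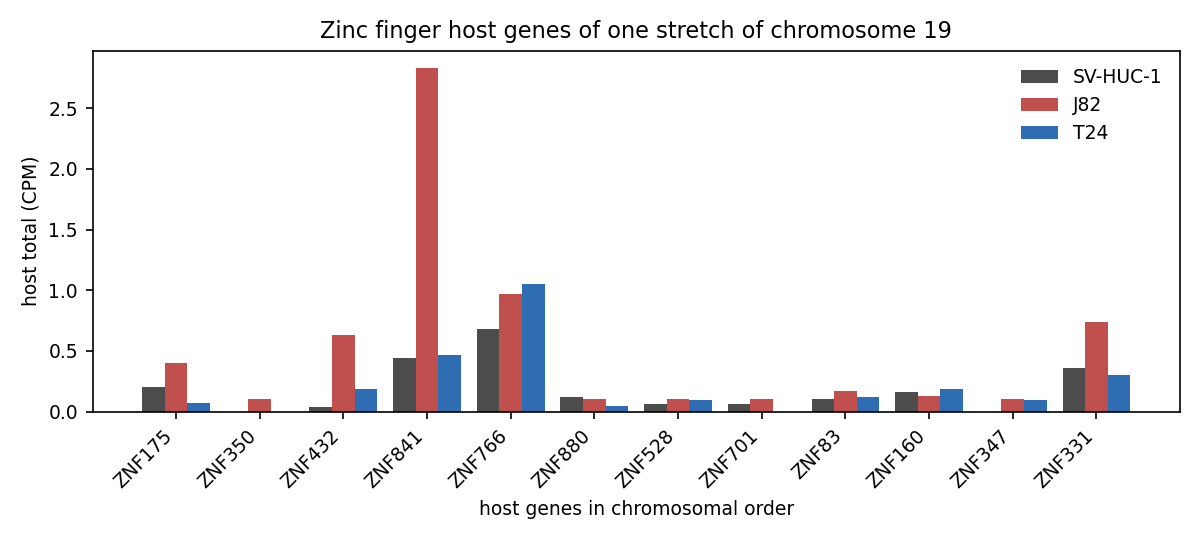
Host total in CPM, per line, of the 12 zinc finger hosts in the stretch of chromosome 19, in chromosomal order and with 1 library per bar. The J82 bars of ZNF841 and ZNF432 exceed those of the other lines, while ZNF766 and ZNF160 show no such gap.

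The promoters of ZNF841 and ZNF432, whose circRNAs were higher in J82, and of their neighbour ZNF766, which lacked a 2-fold difference, are shown for comparison. Each is the 250 bases before the start of transcription from RefSeq (GRCh38.p14), read 5' to 3' on the gene's strand, with capitals on GC boxes (GGGCGG or its complement CCGCCC) and CCAAT boxes (CCAAT or its complement ATTGG). The windows are chr19:52095766-52096015 (minus strand) for ZNF841, chr19:52048839-52049088 (minus strand) for ZNF432 and chr19:52269337-52269586 (plus strand) for ZNF766.
ZNF841 promoter: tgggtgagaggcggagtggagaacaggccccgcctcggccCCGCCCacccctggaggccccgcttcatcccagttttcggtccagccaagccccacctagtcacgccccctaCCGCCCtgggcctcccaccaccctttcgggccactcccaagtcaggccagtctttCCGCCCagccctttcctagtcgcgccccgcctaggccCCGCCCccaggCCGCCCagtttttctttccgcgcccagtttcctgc
ZNF432 promoter: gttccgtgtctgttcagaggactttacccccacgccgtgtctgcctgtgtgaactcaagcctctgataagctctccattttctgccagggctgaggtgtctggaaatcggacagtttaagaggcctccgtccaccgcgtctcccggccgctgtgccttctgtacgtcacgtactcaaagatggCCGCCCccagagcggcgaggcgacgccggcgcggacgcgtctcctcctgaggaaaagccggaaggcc
ZNF766 promoter: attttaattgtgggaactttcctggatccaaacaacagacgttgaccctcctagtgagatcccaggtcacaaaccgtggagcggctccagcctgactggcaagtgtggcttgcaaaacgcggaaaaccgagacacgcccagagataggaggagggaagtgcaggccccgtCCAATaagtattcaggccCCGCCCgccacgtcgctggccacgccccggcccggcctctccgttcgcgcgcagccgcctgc
The ZNF841 window held 5 GC boxes and 0 CCAAT boxes, with a G plus C content of 69.6%. The ZNF432 window held 1 GC box and 0 CCAAT boxes, at 61.6%, and the ZNF766 window held 1 of each, at 61.2%. Promoter activity was not analysed here.

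The T24 sums of members also differed from those of neighbouring circRNAs on 3 other chromosomes, picked after the values were seen. On chromosome 18, the host chromosome of ZNF236, ZCCHC2, ZNF407 and ZNF516, members had 418, 324 and 168 reads, and T24 stood at 0.469 times SV-HUC-1 (0.390 to 0.562), beside 0.756 (0.712 to 0.802) for the other circRNAs of that chromosome. On chromosome 20, with ZBTB46 and ZMYND8, T24 stood at 0.593 times (0.472 to 0.743), beside 1.02. On chromosome 6, led by ZNF292, T24 stood at 1.59 times (1.34 to 1.88), beside 0.808. Few hosts carried these sums. In SV-HUC-1 and T24, ZNF236 had 267 and 108 reads, ZCCHC2 94 and 17, and ZBTB46 87 and 14. ZNF292 had 232 and 310 of the 249 and 339 member reads on chromosome 6. Sums without these hosts were not taken, so a shift across the zinc finger hosts of a chromosome is not shown.

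Within hosts, the leading circRNA was mostly the same in the 3 lines. Of 20 hosts with at least 2 circRNAs and at least 20 reads in each line, 16 had the same leading circRNA throughout, and ZBTB38, ZMYM2, ZNF514 and ZNF827 did not. Shares within a host do not depend on the scaling between libraries. The 11 circRNAs of ZNF236 were led by hsa_circ_0004979, with 74.9% of the reads in SV-HUC-1 (69.3 to 80.0), 62.9% in J82 (55.7 to 69.7) and 62.0% in T24 (52.2 to 71.2). Many of the ZNF236 circRNAs started at the same position, 74561481. The 8 of ZNF148 were led by hsa_circ_0001333, with 50.3% (42.0 to 58.6), 71.5% (64.7 to 77.6) and 62.7% (50.7 to 73.6), and the intervals of SV-HUC-1 and J82 did not overlap. The 6 of ZNF124 were led by hsa_circ_0002922, with 47.6%, 57.0% and 56.1%, and all but hsa_circ_0112880 had the same end at 247323115.

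ZMYND8 kept its leading circRNA, hsa_circ_0007026, but at 48.8% in SV-HUC-1 (37.9 to 59.9), 28.3% in J82 (19.98 to 37.9) and 53.4% in T24 (39.9 to 66.7). Its hsa_circ_0004212 held 9.30%, 25.5% and 8.62%. In ZNF827, hsa_circ_0003187 led in SV-HUC-1 with 35.8% and in T24 with 45.6%, while hsa_circ_0001447 led in J82 with 38.1% (29.4 to 47.5), close to the 36.4% of hsa_circ_0003187. In ZNF514, hsa_circ_0121208 led in SV-HUC-1 with 42.1% and in T24 with 63.6% (45.1 to 79.6), and held 4 of 20 reads in J82 (5.73% to 43.7%), where an unnumbered circRNA (chr2:95815941-95825118, minus strand) led with 60.0%. In ZBTB38, hsa_circ_0003815 led in SV-HUC-1 and J82 with 63.6% and 69.0%, and hsa_circ_0007714 led in T24 with 50.0% (31.3 to 68.7). In ZMYM2, hsa_circ_0005966 led in SV-HUC-1 and T24 with 28.3% and 34.6%, and hsa_circ_0029633 led in J82 with 34.5% (22.2 to 48.6). For ZMYM2, ZNF827 and ZBTB38, the leader's interval overlapped that of the next circRNA in J82, J82 and T24, respectively, so the change of leader was within counting error. For ZNF514, the share of hsa_circ_0121208 in J82 lay outside its interval in T24. ZMYM4 kept hsa_circ_0011536 as its leader among 8 circRNAs, with 32.7% in SV-HUC-1, 12 of 30 reads in J82 and 36.2% in T24.

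**Figure D5:**
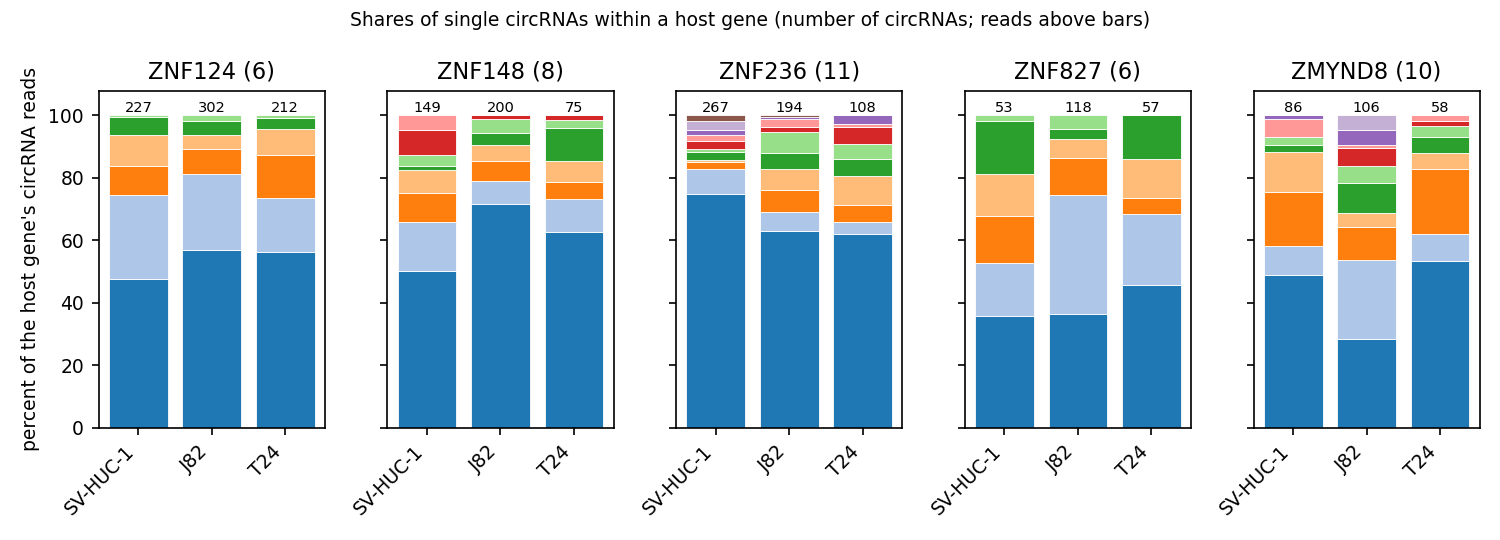
Percent of a host gene's circRNA reads held by each of its circRNAs (one colour per circRNA, the most abundant over the 3 lines at the bottom), for 5 hosts and 3 lines, with the host's reads above each bar. The bottom share of ZMYND8 is 28.3% in J82 and 48.8% in SV-HUC-1, while that of ZNF148 is 50.3% in SV-HUC-1 and 71.5% in J82.

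Host genes of partner proteins were read as lists, again without a test. Of 32 gene symbols for KRAB corepressors and heterochromatin enzymes, where FAM208A and TASOR name the same gene, 17 gave listed circRNAs. Of these, 13 could be compared in each contrast with SV-HUC-1. In J82, 3 were at least 2-fold higher and 0 lower: the histone methyltransferase EHMT2 (6, 46 and 12 reads in SV-HUC-1, J82 and T24), the heterochromatin factor PPHLN1 (9, 42 and 13) and the methylation reader UHRF1 (20, 50 and 49). The position listed for EHMT2 is on an alternate haplotype sequence (6_apd_hap1), and what this does to its reads was not tested. Over all host genes, 18.4% were higher and 19.5% lower in J82, and 18.7% and 22.1% in T24, and the counts of these lists, few in each, are to be read against those shares. In T24, EHMT2 and UHRF1 were higher and FAM208B (15, 15 and 5 reads) lower. Of 17 BTB corepressor partners, 10 gave circRNAs and 6 could be compared, with HDAC4 (16, 5 and 6 reads) lower in J82, and HDAC4 and HDAC9 (19, 11 and 3) lower in T24. Of 76 other zinc finger transcription factors, 30 gave circRNAs. In J82, 6 of the 16 compared were higher, and HINFP, BCL11B and ZFPM1 lower. The 6 were BNC2, GLIS3 (1, 390 and 105 reads), KLF7, MECOM, PRDM2 and RREB1. In T24, GLIS3 and ZEB1 were higher and BCL11B lower among 14. Of 39 symbols of RNA surveillance and tailing genes that partner ZC3H and ZCCHC proteins, where SRRT and ARS2 name the same gene, 19 gave circRNAs. In J82, CNOT2 and XRN1 were higher among 14, and in T24 XRN1 among 15, with 0 lower in both. The median log2 folds in J82 and T24 were 0.07 and 0.59 for the KRAB partners, -0.06 and -0.14 for the BTB partners, -0.19 and -0.10 for the other zinc finger factors, and -0.12 and 0.46 for the RNA surveillance genes. Beside them, the median over all host totals was -0.03 and -0.04, and that of zinc finger hosts 0.07 and 0.03.

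When both cancer lines were set against SV-HUC-1 across all 4513 circRNAs with enough reads, limma called 0 members of 123 at an adjusted p under 0.05 and 0 circRNAs in all (0.00%), and 1 member had an unadjusted p under 0.05, beside 218 of all. This fit has 1 residual degree of freedom and assumes that the lone SV-HUC-1 library varies like the cancer lines. The quasi-likelihood test of edgeR on recovered reads also called 0 of the 123 members, beside 46 circRNAs in all (1.02%), and 3 members had an unadjusted p under 0.05, beside 314. Those 3 were in ZFPM2 (edgeR adjusted p = 0.118), ZNF432 (0.361) and ZC3H18 (0.604). A p above the threshold does not show that levels were the same.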

How the data were processed

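The authors deposited a table of circRNAs with hg19 positions, circBase and circBank IDs, host genes and CPM per line, TMM-normalized per the file headers. The tools in the submitters' processing notes, with no role given, are STAR, edgeR, RSEM 1.2.15 and Bowtie2 2.1.0. The caller of back-splice junctions, and whether starts count from 0 or 1, are not given in the sources used here. Per the labels' protocols, ribosomal and linear RNA were removed before directional cDNA synthesis.

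All values (100%) were whole multiples of the column's smallest value within 0.01 reads, so whole reads were recovered, at 0.0201 (SV-HUC-1), 0.0211 (J82) and 0.0234 (T24) CPM per read. Value columns without a sample numbered 0. Ratios carry exact Clopper-Pearson 95% intervals of reads, and floors are 3 reads per library. Across all circRNAs, limma 3.58.1 was fitted to log2(CPM + 0.0234), and edgeR 4.0.16 (R 4.3.3) to the recovered reads, which called 46 of 4513 circRNAs. Benjamini-Hochberg adjustment covered all circRNAs tested. Other steps used Python 3.11.15 with scipy 1.17.1, and were tested on simulated data. Alternatives were other pseudocounts, filters and scalings, an exact binomial test of reads, and sums without ZNF841.

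Circular RNAs were named if among the 10 with most reads, the 5 highest or lowest of a comparison, known by circBase ID, or from the 5 hosts with most circRNAs. Hosts were named by total or by difference, and counts of 5 or fewer name their members. The members and lists were chosen with earlier results of these data known. A table of proteins was not used here, so fingers were not counted.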

Additional observations from a re-analysis of the deposited data

Results flagged for a closer look

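For a pair of host totals, the direction against SV-HUC-1 differed between the cancer lines, and the difference itself was not tested. The ZNF148 total was 149, 200 and 75 reads (SV-HUC-1, J82, T24), which is 1.41 times SV-HUC-1 in J82 (1.14 to 1.76) and 0.587 times in T24 (0.439 to 0.780). The ZNF215 total, from a gene with SCAN and KRAB domains, was 38, 19 and 67 reads, which is 0.527 times in J82 (0.287 to 0.937) and 2.06 times in T24 (1.36 to 3.15). Each line had 1 library, so a line and its library cannot be told apart.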

How the results depend on the processing

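No paired analysis was possible because each line has 1 library and the labels give no replicate numbers. With 1 library per line, leaving out J82 or T24 from the joint fit leaves no residual degree of freedom and gives the pairwise values. Counts of members past 2-fold depended on the low-read rules. With a pseudocount of 5 reads, 10 members were lower in J82 than in SV-HUC-1 and 12 lower in T24, and 20 were higher and 11 lower in J82 than in T24, beside 576, 740, 668 and 497 of all circRNAs. Without a filter, 74 were higher and 60 lower in J82 against SV-HUC-1, 59 and 72 in T24, and 80 and 57 in J82 against T24 (of 290), beside 2652 and 2617, 2598 and 2913, and 2729 and 2478 of all 10562 circRNAs. With a filter of 20 reads, 9 were higher and 4 lower in J82 (of 54), 9 and 11 in T24 (of 56), and 14 and 9 in J82 against T24 (of 56), beside 392 and 384 of 1849, 329 and 446 of 1738, and 376 and 261 of 1639. The median log2 fold in T24 then changed from -0.15 to 0.12, and that of J82 against T24 from 0.24 to -0.12, while those of all circRNAs were -0.18 and 0.17. Fewer members enter under that filter. The share of higher calls moved from 55.6% to 69.2% in J82 with a filter of 20 reads, and in T24 the pseudocount of 5 reads gave 12 higher and 12 lower. In the exact binomial test of reads, which compares these libraries only, 11 members were lower in J82 and 15 in T24 against SV-HUC-1 (16.4% and 20.3% of all circRNAs). Without ZNF841, which was chosen after seeing the data, the chromosome 19 ratio was 1.59 for J82 against SV-HUC-1 and 1.46 against T24. Scaling to circRNA reads or by the median of ratios left the counts of members within 1.5 times. Of 600 folds of named circRNAs and hosts under another scaling or pseudocount, 0 past 2-fold changed sign, and 0 left the counting interval of the value reported, where there was one. The other scalings moved folds little, and a larger pseudocount only shrinks a fold. A fold past 2-fold could not change sign under these settings, so the lack of sign changes is no support. Most members have too few reads at this depth to resolve a 2-fold difference.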
